A study of Mus musculus with 42 samples.

Results

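The genes described here were 8 that mark B and T lymphocytes, read on every array of a mouse study of diabetic macroangiopathy and its treatment. Cd79a, Cd79b and Ms4a1 mark B cells, and Cd3e, Cd3g, Cd4, Cd8a and Lck mark T cells. They were found by gene symbol on the arrays, where 13 probes carried these names, and they are 8 of 21186 genes measured. The study hybridised 42 single-colour arrays, 3 for each of 7 groups in each of 2 tissues, the aorta and the skeletal muscle. The healthy control group (G) was made of C57BL/6 mice and the spontaneous diabetic group (A) of KK/Ay mice, a strain that carries the yellow obese allele and becomes diabetic. The diabetic macroangiopathy group (C) consisted of KK/Ay mice that for 8 weeks ate a high-fat diet and received L-NAME, a blocker of nitric oxide synthesis. The SHENQI compound group (B), the yangyinyiqi group (D), the huoxue group (E) and the rosiglitazone group (F) had the same model and received their drug by gavage for 8 weeks. Groups G, A and C received saline. All mice were male and 18 to 20 weeks old when they entered the study, and 3 of each group were drawn for the arrays. Groups A to F thus differed from group G in strain as well as in disease, and strain and disease cannot be told apart in a comparison with group G.

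B and T lymphocytes recognise antigen through receptors on their surface. CD79A and CD79B, the products of Cd79a and Cd79b, pair with membrane immunoglobulin and carry the signal of the B cell receptor into the cell, and MS4A1, better known as CD20, is a membrane protein of mature B cells. CD3E and CD3G belong to the signalling complex of the T cell receptor, CD4 and CD8A are the co-receptors that bind class II and class I histocompatibility molecules, and LCK is the kinase that phosphorylates the receptor complex. The wall of a normal artery holds few lymphocytes, whereas the fat around it holds lymph nodes, in which B and T cells lie together with stroma that makes the chemokines CXCL13, CCL19 and CCL21 and with high endothelial venules that make GLYCAM1.

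The 8 genes lie apart in the genome (GRCm38.p6, RefSeq). Cd79a is on chromosome 7 (24897497 to 24901858), Cd79b on chromosome 11 (106311341 to 106314562) and Ms4a1 on chromosome 19 (11249679 to 11266149). Cd3g (44969572 to 44980431) and Cd3e (44998735 to 45009663) are neighbours on chromosome 9. Cd8a (71373427 to 71379171) and Cd4 (124864693 to 124888247) are both on chromosome 6, and Lck is on chromosome 4 (129548344 to 129573641). Promoters were read from RefSeq for the 5 members that matched, in 6 windows of 250 bases before a start. The Cd3e window (chr9:45009612-45009861) overlaps the gene span given above. A B cell and a T cell example are shown, in which capitals mark the letters CAGGAAGT.
Cd79a, chr7:24897247-24897496, plus strand: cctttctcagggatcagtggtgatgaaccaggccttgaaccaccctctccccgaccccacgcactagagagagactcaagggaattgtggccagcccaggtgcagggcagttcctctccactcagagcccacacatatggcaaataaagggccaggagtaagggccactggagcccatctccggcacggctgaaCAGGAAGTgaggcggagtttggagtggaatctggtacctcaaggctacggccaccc
Lck, chr4:129573642-129573891, minus strand: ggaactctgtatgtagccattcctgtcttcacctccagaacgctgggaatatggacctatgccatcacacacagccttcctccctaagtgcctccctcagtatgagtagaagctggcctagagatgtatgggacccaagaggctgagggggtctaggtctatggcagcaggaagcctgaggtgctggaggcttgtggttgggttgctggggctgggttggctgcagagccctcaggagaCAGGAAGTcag

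The octamer ATTTGCAT and the EBF1 core CCCNNGGG, both known from B cell promoters, had no exact match on either strand in any of the 6 windows. Only the Cd79a window is that of a B cell gene. A search for exact letters misses sites that depart from them, so it does not show that a window lacks a site. Of all 32851 promoter windows of that length, 1.6% held the octamer and 11.8% the EBF1 core. CAGGAAGT, which contains the core bound by ETS family factors, was chosen after these promoters had been read. It began 56 bases before the start in Cd79a and 11 bases before it in the Lck window shown, and it was also present in a Lck window farther inside the gene (chr4:129558373-129558622) and, on the opposite strand, in that of Cd3e. The windows of Cd3g and Cd8a did not hold it, and 2.69% of all windows did. These matches are letters in a window and were tied to no measurement of binding. Promoters of Cd79b, Ms4a1 and Cd4 were not used here.

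Levels are given as log2 of the background-corrected and quantile-normalised spot intensity, so 1 unit is a factor of 2 on the same gene, and levels of different genes are not compared. The share of named probes that exceeded background clearly was 62.9% to 77.6% per aorta array and 53.8% to 70.0% per muscle array. The skeletal muscle genes, 6 in a list that includes Ckm and Acta1, averaged 16.2 or more on every muscle array. The aorta arrays carried smooth muscle genes and also brown fat, since Ucp1 lay between 14.98 and 17.51 on all 21 of them. Healthy aorta array 1 went against its label. Its mean over 6 smooth muscle genes was 9.66, against 12.4 to 14.6 on the other 20 aorta arrays and 9.34 to 10.8 on the muscle arrays, and its Myh11, the myosin of smooth muscle, was 9.15 against 12.64 or more. Some values that it moved are given with and without it. The others, among them the SDs, the shares of variance and the tissue differences, include it.

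In the aorta, the B cell genes stood far above the rest on a few arrays that came from nearly every group. Cd79b read 14.91, 8.08 and 11.01 on the 3 healthy arrays and 11.38, 9.502 and 9.67 on the diabetic arrays. It read 8.99, 8.97 and 13.50 in the macroangiopathy group and 8.09, 14.23 and 9.18 in the SHENQI group. It read 9.49, 14.17 and 9.11 in the yangyinyiqi group, 10.80, 14.50 and 7.71 in the huoxue group and 13.06, 10.36 and 10.08 in the rosiglitazone group. A single array of each group was thus the highest, and in 6 of 7 groups it exceeded the next by more than 2 log2 units. The gap was smallest in the diabetic group, at 1.71, and widest in the SHENQI group, at 5.05. From the lowest to the highest array Cd79b spanned 7.20 log2 units, a 147-fold range, or 111-fold without healthy array 1.

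Ms4a1 repeated this order. It read 12.54, 6.55 and 9.09 on the healthy arrays, 9.52, 7.58 and 7.84 on the diabetic arrays, and 7.15, 7.21 and 10.89 in the macroangiopathy group. It read 6.66, 12.59 and 7.48 in the SHENQI group, 7.72, 12.01 and 7.26 in the yangyinyiqi group, 8.99, 12.55 and 6.42 in the huoxue group, and 11.25, 8.59 and 8.40 in the rosiglitazone group. The same array of each group was the highest for Ms4a1 as for Cd79b, and the span was 72.3-fold. Its 2 probes ran from 6.16 to 12.24 and from 6.68 to 13.51, and both were well above background on all 21 arrays. Cd79a, read by a single probe, ran from 6.14 to 8.66 with a median of 6.64, a 5.73-fold span (5.45-fold without healthy array 1). Healthy array 1, huoxue array 2, yangyinyiqi array 2 and SHENQI array 2 held its 4 highest values.

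**Figure D1:**
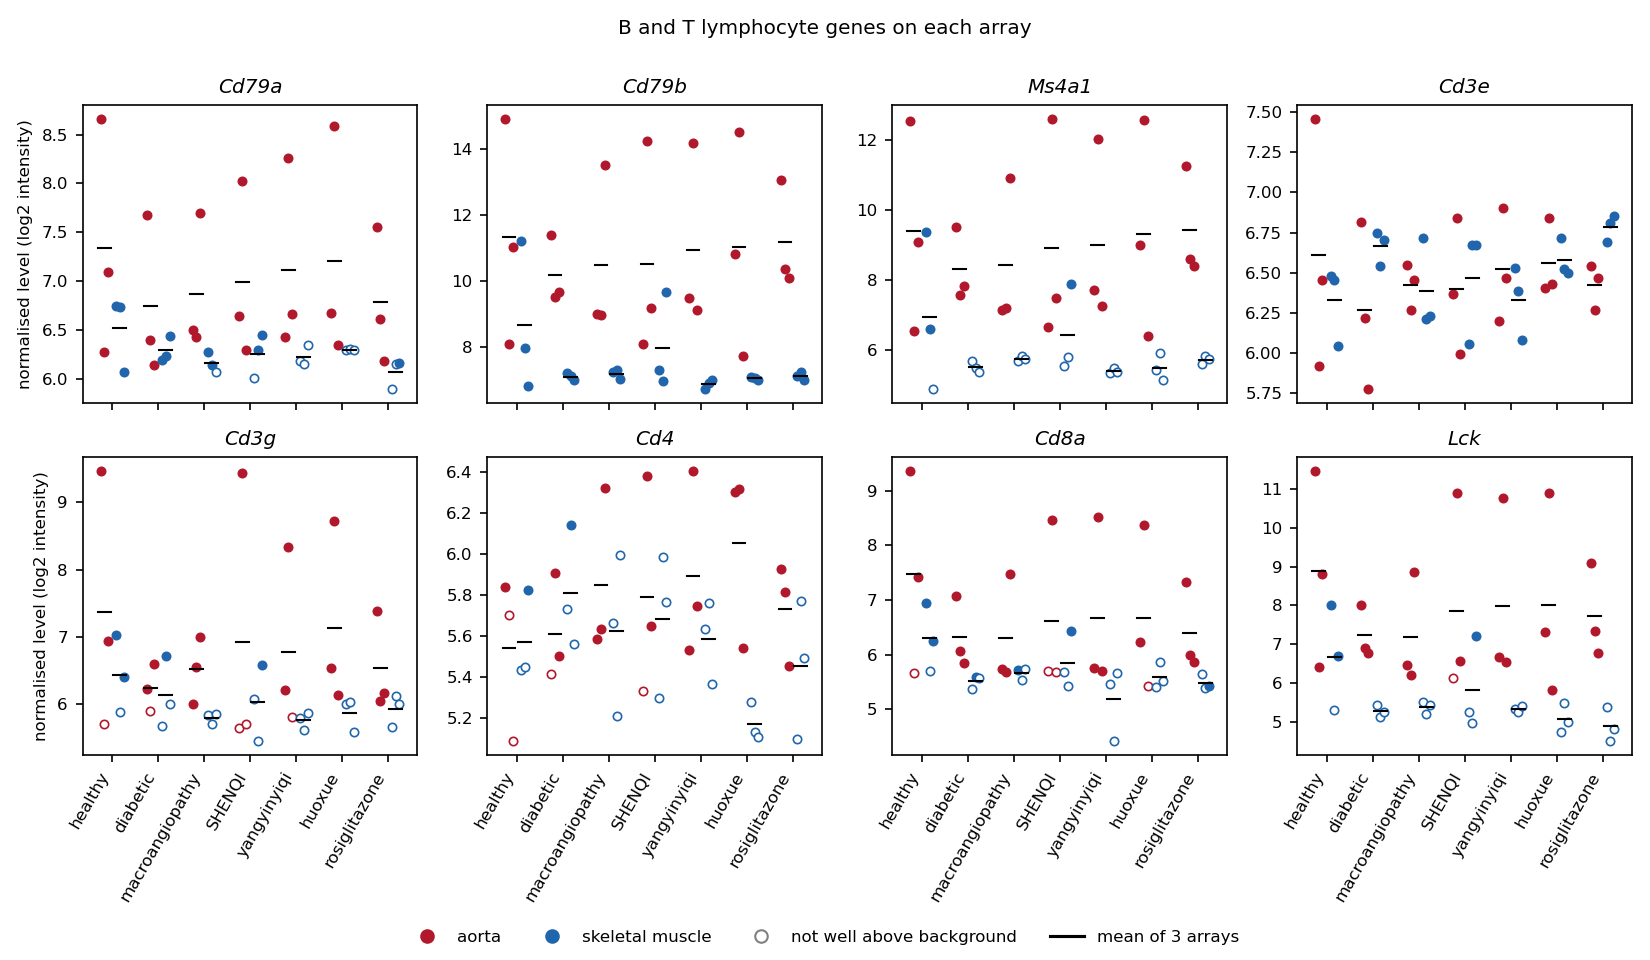
Level of each of the 8 genes (log2 intensity, vertical axis) on every array of the 7 groups (horizontal axis), in aorta (red) and skeletal muscle (blue). Open points were not well above background and bars are means of 3 arrays. For Cd79b, Ms4a1 and Lck a single aorta array stood high in each group, up to 14.91 for Cd79b, while most muscle arrays lay low.

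The T cell genes differed in how far they moved, with wide spans for Lck, Cd8a and Cd3g and narrow ones for Cd3e and Cd4. Lck, the proximal kinase, read 11.47, 6.42 and 8.81 on the healthy aorta arrays, 8.01, 6.90 and 6.79 on the diabetic arrays, and 6.48, 6.22 and 8.87 in the macroangiopathy group. It read 6.13, 10.90 and 6.56 in the SHENQI group, 6.68, 10.76 and 6.55 in the yangyinyiqi group, 7.31, 10.91 and 5.82 in the huoxue group, and 9.10, 7.34 and 6.77 in the rosiglitazone group. The highest Lck array of each group was again the highest for Cd79b, over a 50.1-fold span (33.9-fold without healthy array 1), and Lck was well above background on 20 of 21 arrays. Cd8a, the co-receptor of cytotoxic T cells, ran from 5.43 to 9.37, or to 8.53 without healthy array 1, and Cd3g, a subunit of the receptor complex, ran from 5.64 to 9.47. The lowest array of each was not well above background, so no fold is given. Cd8a was well above background on 17 aorta arrays and Cd3g on 16.

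Cd3e and Cd4 moved little at the level of the gene, which is the mean of its probes. Cd3e still rose with the B cell genes, with Pearson's r of 0.850 with Cd79a, 0.741 with Cd79b and 0.746 with Ms4a1. For Cd4 these were 0.564, 0.659 and 0.657. Cd3e ran from 5.77 to 7.46 in the aorta, a 3.22-fold span (2.19-fold without healthy array 1). Of its 2 probes, 1 was well above background on all 21 aorta arrays and ran from 6.60 to 8.73, and the other, designed on a cDNA record, was well above background on 3 and ran from 4.87 to 6.19. Cd4 ran from 5.08 to 6.41, with its lowest array not well above background. Its probes were well above background on 17 and 5 of 21 aorta arrays. Healthy array 1, the highest for Cd79b and Lck, read 5.84 for Cd4, below 6.41 on yangyinyiqi array 2, 6.38 on SHENQI array 2 and 6.32 on both macroangiopathy array 3 and huoxue array 2.

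Which arrays stood high was shared across members. The 6 highest aorta arrays of a member included yangyinyiqi array 2, huoxue array 2 and SHENQI array 2 for all 8 members, healthy array 1 and macroangiopathy array 3 for 7 members, and rosiglitazone array 1 for 5 members. Within their groups, healthy array 1, SHENQI array 2, yangyinyiqi array 2, huoxue array 2 and rosiglitazone array 1 were the highest for all 8 genes, macroangiopathy array 3 for 7, and diabetic array 1 for 6. The 21 arrays came from 6 slides, and the high arrays were spread over slides that also held low arrays: slide 1 held healthy arrays 1 and 3, diabetic array 1 and SHENQI array 1, on which Cd79b read 14.91, 11.01, 11.38 and 8.09.

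**Figure D2:**
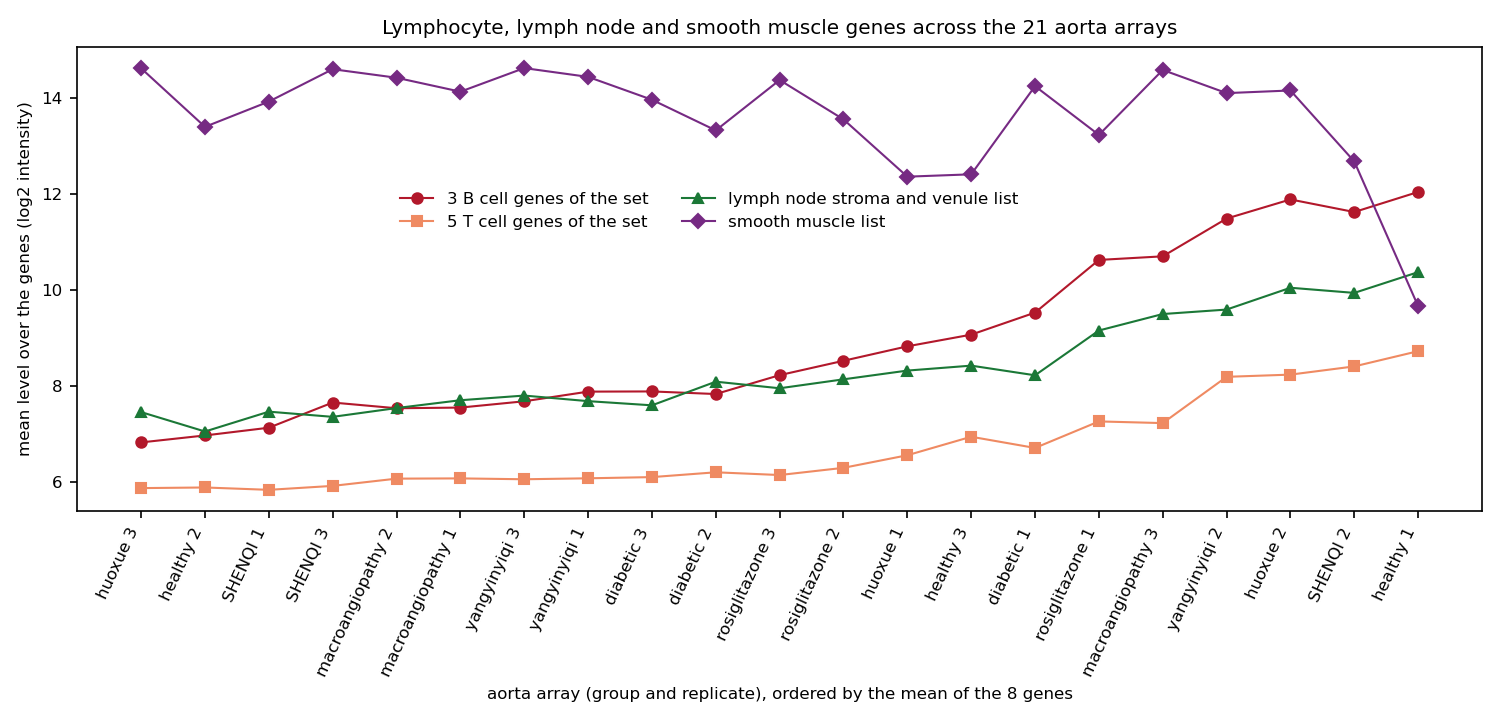
Mean level (log2 intensity, vertical axis) of the 3 B cell genes, the 5 T cell genes, the 10 genes of the lymph node stroma and venule list (Ltb included) and 6 smooth muscle genes on the 21 aorta arrays, ordered by the mean of the 8 lymphocyte genes. The lymphocyte and lymph node lines rise together to the right, and smooth muscle falls to 9.66 on healthy array 1.

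The spread within groups was larger than the differences between them. For Cd79b the group means in the aorta ran from 10.18 in the diabetic group to 11.33 in the healthy group, a range of 1.15, against a pooled SD within groups of 2.74. The order from the highest was healthy, rosiglitazone, huoxue, yangyinyiqi, SHENQI, macroangiopathy and diabetic, and no neighbours differed beyond their spread. Healthy ranked first through array 1, and its mean over the other 2 arrays, 9.54, was the lowest of the 7 groups. For Ms4a1 the means ran from 8.31 (diabetic) to 9.41 (rosiglitazone) with a pooled SD of 2.51, and for Lck from 7.19 (macroangiopathy) to 8.90 (healthy, or 7.62 without array 1) with a pooled SD of 2.07. These SDs were higher than those of 99.9%, 99.9% and 99.6% of the 15778 genes well above background in at least 1 aorta group, whose median SD was 0.29. The share of the variance that lay between groups was 2.90% for Cd79b, 4.05% for Ms4a1 and 9.03% for Lck, against a median of 29.8% over those genes. Cd3g and Cd8a had pooled SDs of 1.37 each, Cd79a of 0.96, Cd3e of 0.43 and Cd4 of 0.41.

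In skeletal muscle the genes were low, apart from 2 arrays. Cd79b read 11.19, 7.96 and 6.82 on the healthy arrays and 7.31, 6.94 and 9.65 in the SHENQI group, and between 6.70 and 7.28 on the 15 arrays of the other groups. Ms4a1 was well above background on 3 of 21 muscle arrays, with 9.38 and 6.61 on healthy arrays 1 and 2 and 7.89 on SHENQI array 3. Lck was also well above background on 3, with 8.003 and 6.70 on healthy arrays 1 and 3 and 7.23 on SHENQI array 3. Healthy array 1 and SHENQI array 3 were thus high in both B and T cell genes. Healthy array 3 parted them, since Lck there was exceeded on those 2 arrays only, whereas Ms4a1, at 4.89, was not well above background. On that array Cxcl13 read 12.20 and the macrophage gene Cd68 10.16, the highest of the muscle arrays for each.

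The remaining members were mostly near background in muscle. Cd3g was well above background on 4 muscle arrays, Cd8a on 6 and Cd4 on 2, and Cd79a on 11. Cd3e was well above background on all 21 muscle arrays through 1 of its probes and ran from 6.04 to 6.85. The pooled SD of Cd79b within groups, 1.03, was larger than that of 99.4% of 14144 genes in muscle, and without the healthy and SHENQI groups the SDs of Cd79b in a group were at most 0.15.

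Between the tissues, 6 of 8 members were higher in the aorta after adjustment over all 16176 genes tested, with the group as a term in the limma fit, and 40.1% of all genes were higher there. Cd79b averaged 10.80 ± 2.33 (SD, n = 21) in the aorta and 7.41 ± 1.06 in muscle, a difference of 3.39 ± 0.57 (SE), or 10.46-fold (adjusted P = 1.61e-06). Ms4a1 averaged 8.97 ± 2.14 and 5.90 ± 0.998, a difference of 3.07 ± 0.52 (adjusted P = 2.2e-06). Lck averaged 7.85 ± 1.81 and 5.49 ± 0.83, a difference of 2.35 ± 0.42 (adjusted P = 5.58e-06). No fold is given for these 2, which were mostly not well above background in muscle. For these 3 genes the aorta mean was the higher in all 7 groups, yet the tissues overlapped, and only 7, 7 and 8 of 21 aorta arrays exceeded the highest muscle array. Smaller differences were found for Cd8a (0.98, adjusted P = 0.00164), Cd3g (0.79, adjusted P = 0.0101) and Cd79a (0.75, adjusted P = 0.000562). Ms4a1, Lck, Cd8a and Cd3g were well above background on all 3 arrays of no muscle group. They entered the test only through aorta groups, where they were high, so their calls are no support for a difference.

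Cd4 and Cd3e did not pass. Cd4 differed by 0.22 ± 0.11 (adjusted P = 0.0632) and Cd3e by -0.05 ± 0.10 (adjusted P = 0.689). The Cd3e difference changed sign with other settings, to 0.04 with an offset of 50 in the background correction and 0.21 with its brightest probe alone, and that of Cd4 changed to -0.40 with each tissue normalised apart. Ms4a1, Lck, Cd3g and Cd4 were well above background on 2 to 4 muscle arrays and Cd8a on 6, so their muscle levels are largely those of dim probes. In bulk tissue fewer cells of a type and less RNA per cell cannot be told apart. Without healthy aorta array 1 the count was also 6. It was 4 with each tissue normalised apart, where Cd8a (adjusted P = 0.107) and Cd3g (adjusted P = 0.137) did not pass, and 1 where a probe had to be well above background on every array.

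Across the 21 aorta arrays the members rose and fell together. For each pair of members Pearson's r and Spearman's rho were computed with a two-sided permutation test of 100000 draws and adjusted over the 28 pairs. Of 28 pairs, 27 had an adjusted P under 0.05 by r and 27 by rho. Cd79b and Ms4a1 had r = 0.995 and rho = 0.991, Cd8a and Lck r = 0.989 and rho = 0.964, and Ms4a1 and Lck r = 0.974 and rho = 0.977 (adjusted P = 1.65e-05 by r for each pair, from P = 1e-05, the smallest these permutations can give). Leaving out the 2 arrays farthest from the median of the first gene, these values of r were 0.994, 0.987 and 0.962. The r of deviations from the group means was 0.998, 0.993 and 0.992, so the relation was present within groups. The exception was Cd3e with Cd4, at r = 0.353 and rho = 0.375 (adjusted P = 0.117 and 0.0935 by permutation).

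Between B and T cell genes, 15 pairs had r between 0.564 (Cd79a with Cd4) and 0.974, and without healthy array 1 between 0.616 and 0.972. The widest gap in the mean of the 8 genes, 0.90, parted 4 arrays from the other 17. Among the 17 lower arrays r was 0.993 for Cd79b with Ms4a1, 0.939 for Cd79b with Lck and 0.439 for Cd79b with Cd4. These values are a description with no test, since the same genes chose the 17 arrays and the choice narrows their range, and the 4 upper arrays were too few for a correlation.

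**Figure D3:**
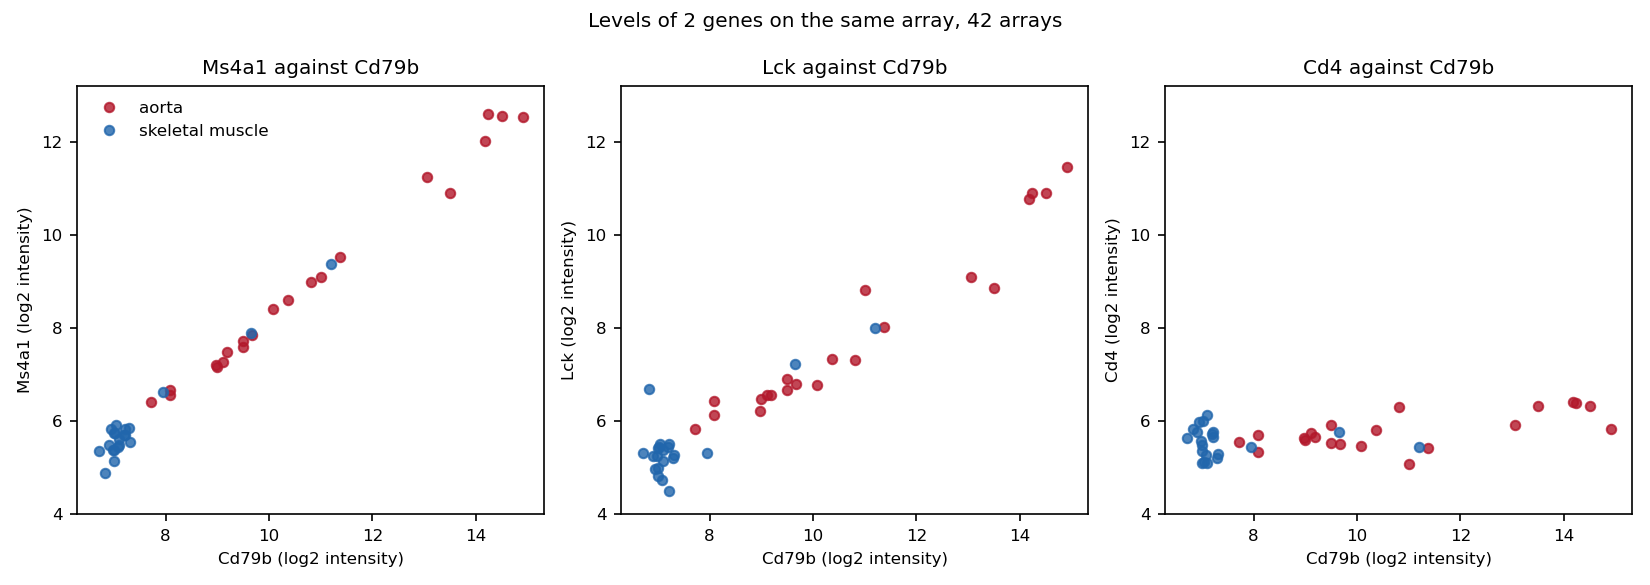
Level of Ms4a1, Lck and Cd4 (vertical axes) against Cd79b (horizontal axis), all in log2 intensity, on the 42 arrays, with aorta in red and skeletal muscle in blue. Ms4a1 and Lck climb with Cd79b, while Cd4 stays between 5.08 and 6.41 in the aorta.

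In skeletal muscle 3 members were well above background on enough arrays, which gave 3 pairs. Cd79a and Cd79b had r = 0.652 (adjusted P = 0.0149 by permutation) but rho = 0.182 (adjusted P = 0.73), and r without the 2 arrays farthest from the Cd79a median was 0.362, so the relation rests on those arrays. Cd79a with Cd3e (r = 0.154) and Cd79b with Cd3e (r = 0.065) did not pass.

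The proportion of B to T cell signal differed among the high arrays. Cd79b minus Lck on the same array, in log2 units, was 4.63 on macroangiopathy array 3 and 3.96 on rosiglitazone array 1. It was 3.34 to 3.59 on healthy array 1, SHENQI array 2, yangyinyiqi array 2 and huoxue array 2, and 2.21 on healthy array 3. Arrays that were not high reached this band too, with 3.49 on huoxue array 1 and 3.37 on diabetic array 1. Ms4a1 minus Lck gave another order. It was 2.14 on rosiglitazone array 1, 2.03 on macroangiopathy array 3, 1.70 on SHENQI array 2, 1.64 on huoxue array 2, 1.25 on yangyinyiqi array 2 and 1.07 on healthy array 1. The proportion thus depends on the B cell gene chosen. These are single arrays with no replicate of their own, and since different probes are compared only the change from array to array can be read.

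The genes most like the members were largely other lymphocyte genes, along with genes of leukocytes in general such as Rac2 and Ptprc. Likeness was Pearson's r over the 21 aorta arrays, given as a description among 15778 genes. Among the 10 genes most like the mean of Cd79a, Cd79b and Ms4a1 were Tnfrsf13c, which encodes the BAFF receptor (0.997), H2-Oa (0.994), Myo1g (0.994), Ighm, the heavy chain of IgM (0.994), Rac2 (0.992), Traf3ip3 (0.992), Ccr6 (0.991), Faim3 (0.991) and Hvcn1 (0.991). Tnfrsf13c ran from 5.78 to 11.55 and Ighm from 9.42 to 15.82. The 10 most like the mean of the 5 T cell genes were Ikzf1, a transcription factor of lymphocytes (0.992), Rhoh (0.992), Ptprc, the pan-leukocyte CD45 (0.991), Stat4 (0.991), Sash3 (0.990), Cd3d, another subunit of the receptor complex (0.990), Gm8995 (0.990), Traf3ip3 (0.989), Ptprcap (0.989) and Bank1, a B cell adaptor (0.988). Cd3d ran from 6.21 to 13.13. Over all genes the median r with the B cell genes was -0.159 and 4.22% exceeded 0.8.

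The other genes of both pathways were read from fixed lists. Of 16 further B cell genes compared, 15 had r above 0.8 with the B cell members, among them Pou2af1, the octamer coactivator (0.988), Cxcr5, the receptor for CXCL13 (0.986) and Cr2, complement receptor 2 (0.970). The exception was Ebf1, a transcription factor that fat cells also express, at 0.116 (-0.024 without healthy array 1). Of 15 further T cell genes, 14 had r above 0.8 with the T cell members. Of 20 antigen receptor signalling genes, 18 had r above 0.8 with the B cell members, including Syk (0.952), the kinase of the B cell receptor, Blnk (0.967) and Btk (0.961), and Plcg1 was at -0.298.

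Part of the list of lymph node stroma and venule genes moved with the lymphocyte genes in the aorta. Of 9 list genes compared, 5 had r above 0.8 with the B cell members: Ltb (0.988), Glycam1 (0.943), Cxcl13 (0.930), Ccl19 (0.913) and Ccl21a (0.899). Ltb encodes lymphotoxin beta, which lymphocytes themselves make, so it does not stand for stroma. Without healthy array 1 they lay between 0.878 and 0.990. Lyve1, a lymphatic endothelial gene, was at 0.598, Prox1 at 0.228, Madcam1 at 0.224 and Chst4 at 0.104 (-0.116 without healthy array 1). Glycam1, the venule mucin, read 10.36 on healthy array 1, 10.997 on macroangiopathy array 3, 11.57 on SHENQI array 2, 10.55 on yangyinyiqi array 2, 12.18 on huoxue array 2 and 9.69 on rosiglitazone array 1, and at most 8.52 on the other aorta arrays. Cxcl13, which draws B cells to follicles, read 14.26, 9.66, 11.94, 10.69, 11.55 and 10.55 on these 6 arrays in the same order, and at most 9.20 on the others. Both genes were thus higher on these 6 arrays than on every other aorta array. In muscle Glycam1 read 13.07 on healthy array 1, where Cd79b was also the highest, and 6.45 on SHENQI array 3.

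The mean of the 10 lymph node genes ran from 7.05 to 10.37 in the healthy aorta, 7.59 to 8.22 in the diabetic, 7.54 to 9.49 in the macroangiopathy, 7.35 to 9.93 in the SHENQI, 7.68 to 9.59 in the yangyinyiqi, 7.45 to 10.04 in the huoxue and 7.95 to 9.15 in the rosiglitazone group. In 6 of 7 groups its highest array was the one highest for Cd79b by over 2 units, and in the diabetic group it was diabetic array 1. This mean includes Ltb. In the diabetic group Ltb and Cxcl13 were highest on array 1, whereas Glycam1 and Ccl19 were highest on array 2 and Ccl21a was lowest on array 1. Of the thymus genes, Rag1, Rag2 and Ptcra, which developing T cells use, were well above background on 0 of 21 aorta arrays, with highest levels of 5.26, 5.57 and 5.68. Dntt, which adds bases to receptor gene joints in developing lymphocytes, was well above background on 18, ran from 5.21 to 6.68 with its highest value on healthy array 1, and had r = 0.704 with the B cell and 0.795 with the T cell members. On the muscle arrays Dntt was well above background on all 21, with a median of 6.39 against 5.63 in the aorta and a highest level of 6.80. What sets its aorta levels was not tested. Prss16, a protease of thymic epithelium, was well above background on 2 and read 6.64 on healthy array 1. Foxn1, also on the thymus list, was well above background on 11 aorta arrays, up to 6.74, and on 13 muscle arrays, up to 6.81. It had r = -0.066 with the B cell and -0.134 with the T cell members. Psmb11 was well above background on 3 aorta arrays, up to 5.97. Whether carried lymph node sets the levels of the members was not tested.

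Disease comparisons asked whether the lymphocyte genes differed between the diabetic, macroangiopathy and healthy groups. By limma on the 6 arrays of each comparison, none of the members tested passed after adjustment. In the aorta of the diabetic against the healthy group, 6 of 8 members were tested, 0 had an unadjusted P under 0.05 (11.7% of all genes tested did) and 0 an adjusted P under 0.05 (0.213% of all genes). All but Cd4 were lower on average, with Lck at -1.67 ± 1.19 (SE) (adjusted P = 0.632), and all 8 overlapped. On slide 1, which held arrays of both groups, Lck differed by -2.13 (1 diabetic against 2 healthy arrays, healthy array 1 among them). The diabetic array read 8.01 there, against 11.47 on healthy array 1 and 8.81 on healthy array 3. In the aorta of the macroangiopathy against the healthy group all 8 were tested, 0 passed unadjusted (18.6% of genes) and 0 adjusted (0.259%), with Lck at -1.71 ± 1.36 and Cd4 at 0.30 ± 0.30. Between macroangiopathy and diabetic aorta 0 of 8 passed unadjusted (3.8%) or adjusted (0%), and differences ran from -0.05 to 0.30.

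These directions rested on healthy array 1, the one low in smooth muscle genes. Without it the diabetic minus healthy difference turned for 4 of 8 members, among them Cd79b (0.64) and Ms4a1 (0.49), and was -0.38 for Lck. The macroangiopathy minus healthy difference turned for 5 of 8, with Cd79b at 0.94, and was -0.43 for Lck. No member passed without it by limma, adjusted or unadjusted. Without healthy array 2, the lowest, the diabetic minus healthy difference was -2.90 for Lck, -2.065 for Cd8a and -1.965 for Cd3g at unadjusted P of 0.0144, 0.0226 and 0.0394 by limma (adjusted P 0.228 to 0.299). Cd3g entered that fit only through the healthy arrays that were left, where it was high, so its value is no support for a difference.

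In skeletal muscle only members well above background on all 3 arrays of a group could be tested. In the diabetic against the healthy group 3 of 8 were tested, 0 passed unadjusted (22.2% of genes) and 0 adjusted (4.28%), with Cd79b at -1.57 ± 1.004. In the macroangiopathy against the healthy group 3 were tested, 0 passed unadjusted (21.8%) and 0 adjusted (3.35%), with Cd79b at -1.48 ± 1.01. These differences came from healthy array 1, since the other healthy arrays read 7.96 and 6.82 against diabetic arrays of 7.19, 7.09 and 6.99. Between macroangiopathy and diabetic muscle 3 were tested, 0 passed unadjusted (7.24%) and 0 adjusted (0.0146%). The unadjusted count was 2 with slide as a fixed block, 1 with slide as a random block and 1 with the replicate block, and the adjusted count was 0 in each.

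The healthy muscle comparisons changed with the array left out. Without healthy array 2, Lck became testable and differed by -2.07 in the diabetic group (adjusted P = 0.0449 by limma) and by -1.97 in the macroangiopathy group (adjusted P = 0.049). It entered the test through the healthy arrays that were left, where it was high, and was not well above background on any diabetic or macroangiopathy muscle array, so these calls are no support for a difference. The same holds for Ms4a1 without healthy array 3. Without healthy array 3, Cd79a differed by -0.58 in the macroangiopathy group (adjusted P = 0.0329 by limma). In that comparison it too entered only through the healthy arrays, being well above background on 2 macroangiopathy arrays, so this call is no support either. In the diabetic group, where it was well above background on all 3 arrays, Cd79a differed by -0.45 (unadjusted P = 0.011, adjusted P = 0.0714 by limma). Cd79b, well above background on every array, had unadjusted P of 0.0298 and 0.0333 by limma in the 2 comparisons (adjusted P 0.125 and 0.128). Further genes were counted at an unadjusted P under 0.05 by limma, which 22.2% of all genes had in diabetic and 21.8% in macroangiopathy muscle. Of 10 further B cell genes tested, 0 and 1 were lower and 0 higher in either. Of 9 further T cell genes tested, 5 were lower and 1 higher in diabetic muscle, with a median difference of -0.61 against 0.03 over all genes. In macroangiopathy muscle 4 were lower and 1 higher. Between macroangiopathy and diabetic muscle only 5 T cell genes were tested, so some of the 9 entered only through the healthy arrays, and their counts are no support for a difference. Of the 6 pan-leukocyte genes 5 and 6 were lower, and of the 8 macrophage genes 6 and 6. After adjustment, Ccl19 of the 7 lymph node genes tested was higher in macroangiopathy than in healthy muscle by 2.07 ± 0.41 (adjusted P = 0.0483), and Cd28, the T cell gene that went the other way, which encodes a costimulatory receptor, was higher in diabetic muscle by 0.92 ± 0.13 (adjusted P = 0.0191). Of the signalling genes Syk was lower in diabetic muscle by -0.59 ± 0.12 (adjusted P = 0.0445) and in macroangiopathy muscle by -0.69 ± 0.12 (adjusted P = 0.0336).

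**Figure D4:**
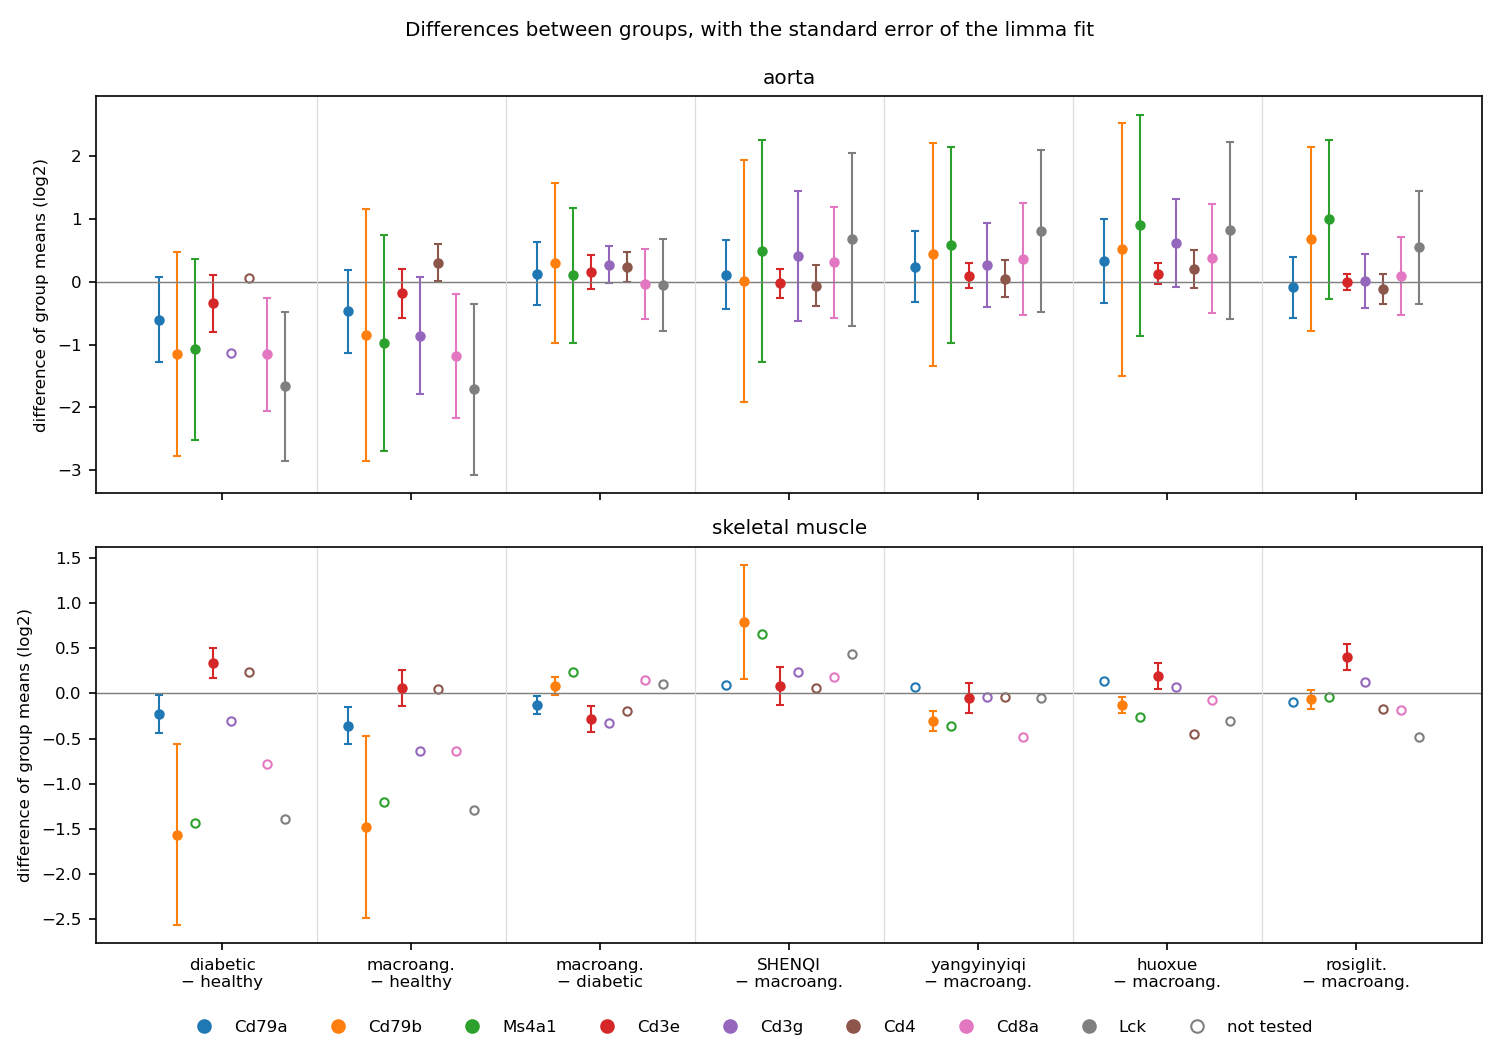
Difference of group means (log2, vertical axis) of the 8 genes in each of 7 comparisons (horizontal axis), in aorta (top) and skeletal muscle (bottom). Bars are standard errors of the limma fit and open points were not tested. In the aorta the standard errors of Cd79b, 1.27 to 2.02, were longer than its differences in every comparison.

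Treatment comparisons set each drug against the macroangiopathy group. In the aorta all 8 members were tested in each, and none passed. For the SHENQI compound 0 passed unadjusted (1.61% of genes) and 0 adjusted (0%), with Cd79b at 0.02 ± 1.93 and Lck at 0.68 ± 1.39. For yangyinyiqi 0 passed unadjusted (1.4%) and 0 adjusted (0%), with all 8 members higher on average, by 0.05 to 0.81. On slide 6, where the yangyinyiqi group had 1 array and the macroangiopathy group 3, all 8 were lower instead, Cd79b by -0.998. For huoxue 0 passed unadjusted (2.07%) and 0 adjusted (0%), with differences of 0.13 to 0.90, and for rosiglitazone 0 passed unadjusted (7.11%) and 0 adjusted (0%), with Ms4a1 at 0.99 ± 1.26. The standard errors of Cd79b in these fits, 1.46 to 2.02, were larger than every difference. Without SHENQI array 2, Cd3g differed from the macroangiopathy group by -0.84 (unadjusted P = 0.0361, adjusted P = 0.878 by limma). It entered that fit only through the macroangiopathy arrays, where it was the higher, so this value is no support for a difference.

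In skeletal muscle 2 members, Cd79b and Cd3e, could be tested for each drug. For the SHENQI compound 0 passed unadjusted (2.94% of genes) and 0 adjusted (0%), with Cd79b at 0.80 ± 0.63, a difference carried by SHENQI array 3. On slide 7, with 2 arrays of each group, it was 1.05. For yangyinyiqi Cd79b read 6.70, 6.90 and 6.996 against 7.22, 7.28 and 7.01 in the macroangiopathy group. The groups did not overlap, although the highest yangyinyiqi and the lowest macroangiopathy array nearly met, and the difference of -0.31 ± 0.11 was the only unadjusted pass by limma (adjusted P = 0.992, unadjusted P = 0.0229; 3.83% of genes passed), with 0 adjusted (0% of genes). It fell to -0.15 on slide 8, and its unadjusted P was 0.689 in the fit over all 21 muscle arrays.

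For huoxue 0 of 2 passed unadjusted, while 45.5% of all genes did, and 0 adjusted, while 32.2% did. For rosiglitazone Cd3e read 6.69, 6.81 and 6.85 against 6.71, 6.21 and 6.23, groups that overlapped, and the difference of 0.40 ± 0.15 passed by limma at an unadjusted P of 0.0261 (29.7% of genes passed) but not after adjustment (adjusted P = 0.118; 9.85% of genes passed). With its brightest probe alone the difference was 0.08 (unadjusted P of 0.441 by limma), and without rosiglitazone array 2 or 3 or macroangiopathy array 2 or 3 it lost its unadjusted call (unadjusted P of 0.0649 to 0.0934). In huoxue muscle 2 of 7 lymph node genes and 1 of 8 further B cell genes tested passed after adjustment. So did 2 of 4 further T cell genes tested, against the 32.2% of all genes. In rosiglitazone muscle these counts were 1 of 7, 0 of 8 and 0 of 4. Cxcl13 was higher in huoxue muscle by 0.98 ± 0.23 (adjusted P = 0.0161 by limma) and in rosiglitazone muscle by 1.29 ± 0.29 (adjusted P = 0.0372). Chst4 was higher in huoxue muscle by 0.59 ± 0.14 (adjusted P = 0.0155). Fcer2a, the low-affinity IgE receptor of B cells, was higher there by 0.38 ± 0.10 (adjusted P = 0.03). The T cell genes were Cd28, higher by 0.40 ± 0.11 (adjusted P = 0.0332), and Cd27, higher by 0.35 ± 0.11 (adjusted P = 0.042).

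Whether a comparison gave a different change in the 2 tissues was tested for the members. Of 54 such tests over the 7 comparisons, 0 passed unadjusted or adjusted by limma, and the smallest unadjusted P was 0.0788, for Cd3e under rosiglitazone (adjusted P = 0.363).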

How the data were processed

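Male mice of 7 groups were measured in aorta and skeletal muscle on 42 Agilent arrays. The authors deposited scanner output of Agilent Feature Extraction 10.7 for every array, from which the median spot intensity and the local background intensity were used as deposited. A second deposited file, with quantile-normalised log2 values whose median was 5.36 in every column, served as an alternative. Its scale tracked log2 of the processed signal, and any centring or filter behind it is not given in the sources used here.

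Background was corrected with normexp (limma 3.58.1, offset 0) on all spots, control spots were dropped, and the 42 arrays were quantile normalised on the log2 scale. Irregular spots were masked, spots were averaged to 41174 probes and probes to 21186 gene symbols as the files give them. All 861 pairs of arrays differed. Probe positions in the files are those of mm9 and are not printed. A probe was well above background on an array when at least 0.5 of its spots were. Genes were tested where all 3 arrays of either group compared had a probe well above background. Each comparison was a limma fit (lmFit, eBayes) on the 6 arrays of the tissue, with Benjamini-Hochberg adjustment over all genes tested and a threshold of 0.05. Tissues were compared on 42 arrays with the group as a term, and the difference of a comparison between tissues on 12 arrays with 4 means. The fits and the permutation test were tested on simulated data.

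Members and lists were chosen with earlier results of these data known. The genes named are the 8 members, the 10 most like the B cell and the 10 most like the T cell members, and for the lists the 3 largest differences past the threshold in a comparison; other list genes that are named were chosen after their values were seen, and some genes that the rule names are not reported here. Labels tie no aorta array to a muscle array of the same mouse, and replicate numbers were not taken as pairs. The number of arrays limits the precision. Slide was the batch examined; in the comparisons not named with a slide above, slide and group cannot be told apart within the comparison, apart from fits over all arrays of a tissue. Alternatives were other background corrections, normalisations, filters, probe choices and fits, a slide block, a replicate block and leaving out each array.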

Additional observations from a re-analysis of the deposited data

How the results depend on the processing

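The count of members past the adjusted threshold was 0 in all 14 comparisons and stayed 0 under the 175 combinations of comparison and other setting. Leaving out 1 array gave 0 to 1 for the diabetic and for the macroangiopathy against the healthy muscle, and 0 in every other comparison. The members called were Lck without healthy muscle array 2 and Cd79a without array 3, and the background filter admitted both through the high healthy arrays. The count of members higher in the aorta, 6, fell to 1 when a probe had to be well above background on every array compared, because fewer genes are then tested. It was 4 with each tissue normalised apart and 7 with the authors' table. The Cd3e difference between tissues turned from -0.05 to 0.036 with an offset of 50, 0.208 with the brightest probe, 0.012 without group A and 0.006 without group F, and that of Cd4 from 0.22 to -0.405 with each tissue normalised apart. The cause was not tested. Correlated pairs in the aorta fell from 27 to 16 among the 17 arrays below the widest gap, an alternative chosen after seeing the data whose count is shaped by the choice, since the same genes set the gap. Same-numbered arrays deviated together for all 3 numbers in 0 of 14 comparisons (correlations -0.49 to 0.60), and with the replicate block the adjusted count was 0 in all 14 comparisons and the tissue count 6. Dim probes in muscle limit what can be read there.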

Other observations

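Other leukocyte genes also followed the lymphocyte genes over the 21 aorta arrays. All 6 pan-leukocyte genes had r above 0.8 with the B cell members (0.913 to 0.992). Of the natural killer cell genes 3 of 6 compared did, of the plasma cell genes 2 of 5, of the macrophage genes 1 of 8 and of the thymus genes 0 of 3. All 6 smooth muscle genes (-0.525 to -0.422, and -0.362 to -0.190 without healthy array 1), all 6 cardiac muscle genes (-0.569 to -0.346), all 5 brown adipocyte genes (-0.733 to -0.112) and all 5 red cell genes (-0.401 to -0.218, and -0.279 to 0.126 without healthy array 1) had r below 0. Of 6 white adipocyte genes 5 were below 0, and of 6 skeletal muscle genes 5.

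In muscle, the macrophage mean was highest on healthy array 3, at 10.3, where Ms4a1 was not well above background. Nkg7, a cytotoxic granule gene, was lower in macroangiopathy than in healthy muscle by -1.87 ± 0.34 (adjusted P = 0.0413 by limma), and Laptm5 by -1.54 ± 0.28 (adjusted P = 0.0411), with 3 arrays in each group. Nkg7 entered the test only through the healthy arrays, where it was high, so its call is no support for a difference.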
